A study of Mus musculus with 134 samples.

Results

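The expression of 39 genes of macrophages and dendritic cells was measured in 134 mammary tumors, out of 19938 genes measured with the same arrays. A list of 40 genes was matched by symbol to the probe sets of the array that carried 1 gene symbol, and the probe set with the highest mean was taken for a gene that had several. Spp1, which encodes the secreted phosphoprotein osteopontin, had no such probe set and was not analysed here. The remaining 39 genes comprised 2 ligands, 3 growth factor receptors, 5 general surface or leukocyte genes, 5 Fc receptors and adaptors, 3 complement genes, 9 genes of resident-like macrophages, 4 of monocytes and inflammation, 3 lysosomal or lipid genes and 5 of dendritic cells.

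All 134 tumors came from untreated N2 females that carried the polyoma middle T transgene under the mouse mammary tumor virus promoter (MMTV-PyMT), which drives mammary epithelium to form tumors. F1 males of MMTV-PyMT fathers and MOLF/EiJ mothers had been bred to FVB/NJ females, so that each animal received its own set of MOLF chromosome segments on an FVB/NJ background. Ages were not given, and tumors were collected when the animals neared their endpoints. The labels gave 1 group with 1 array per tumor and named no second sample of a tumor. The comparisons below are therefore between levels across tumors, and the spread between tumors includes measurement error.

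Macrophages and most of their precursors depend on the receptor encoded by Csf1r, a tyrosine kinase that binds the cytokines encoded by Csf1 and Il34. Macrophages of MMTV-PyMT tumors are known as cells recruited by CSF1 that accompany tumor progression. Resident macrophages of connective tissue are recognised by scavenger and lectin receptors, monocytes arriving from blood by the chemokine receptor encoded by Ccr2, and conventional dendritic cells by dependence on the receptor encoded by Flt3.

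The values were log2 signals from RMA, a procedure applied by the authors that brings all arrays to a common scale and gives 1 value per probe set. Array medians lay between 6.30 and 6.54, and how precise a mean over arrays is depends on how many arrays there are. A detection floor of 5.72 was set at the 95th percentile of the means of 1190 olfactory and vomeronasal receptor genes, which are taken as silent in this tissue. Labels number the tumors in 2 runs, 107 to 134 (n = 28) and 1 to 106 (n = 106), in which animal identifiers ascend anew. What the runs stand for is not stated. Arrays 109 to 120 resembled arrays 97 to 108 at a distance of 12 label numbers, since 10 of the 12 arrays numbered 97 to 108 had the array 12 numbers later as their nearest (r of the 12 pairs between 0.141 and 0.893 after centring each gene). The median r over all pairs of arrays was -0.02. Most of the 12 pairs join an array of tumors 1 to 106 with an array of tumors 107 to 134, so the 2 runs are not separate sets. The tests treat all 134 arrays as independent, and what the resemblance stems from was not tested. Tumor 73 stood apart, with the lowest value of 11 of the 39 genes and the highest mean level of the skeletal muscle, adipocyte, fibroblast and endothelium lists. Results are given below with and without these arrays where they rest on them.

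In bulk tumor RNA, fewer cells of a type and less RNA per cell cannot be told apart. The mean of 34 of the 39 genes exceeded the floor, and 27 genes were above it in every tumor. The means of Aif1, Ccr2, Vsig4, Cd86 and Flt3 lay under it, so that part of their differences between tumors may be background. The 39 genes varied more than most: the median SD across tumors was 0.31, against 0.19 over all genes, and 34 of the 39 exceeded the median of all genes. Only 13760 of all genes had means above the floor, and the 39 were not compared with these alone. Signals of different probe sets are not compared with each other, because probes differ in how strongly they bind.

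**Figure D1:**
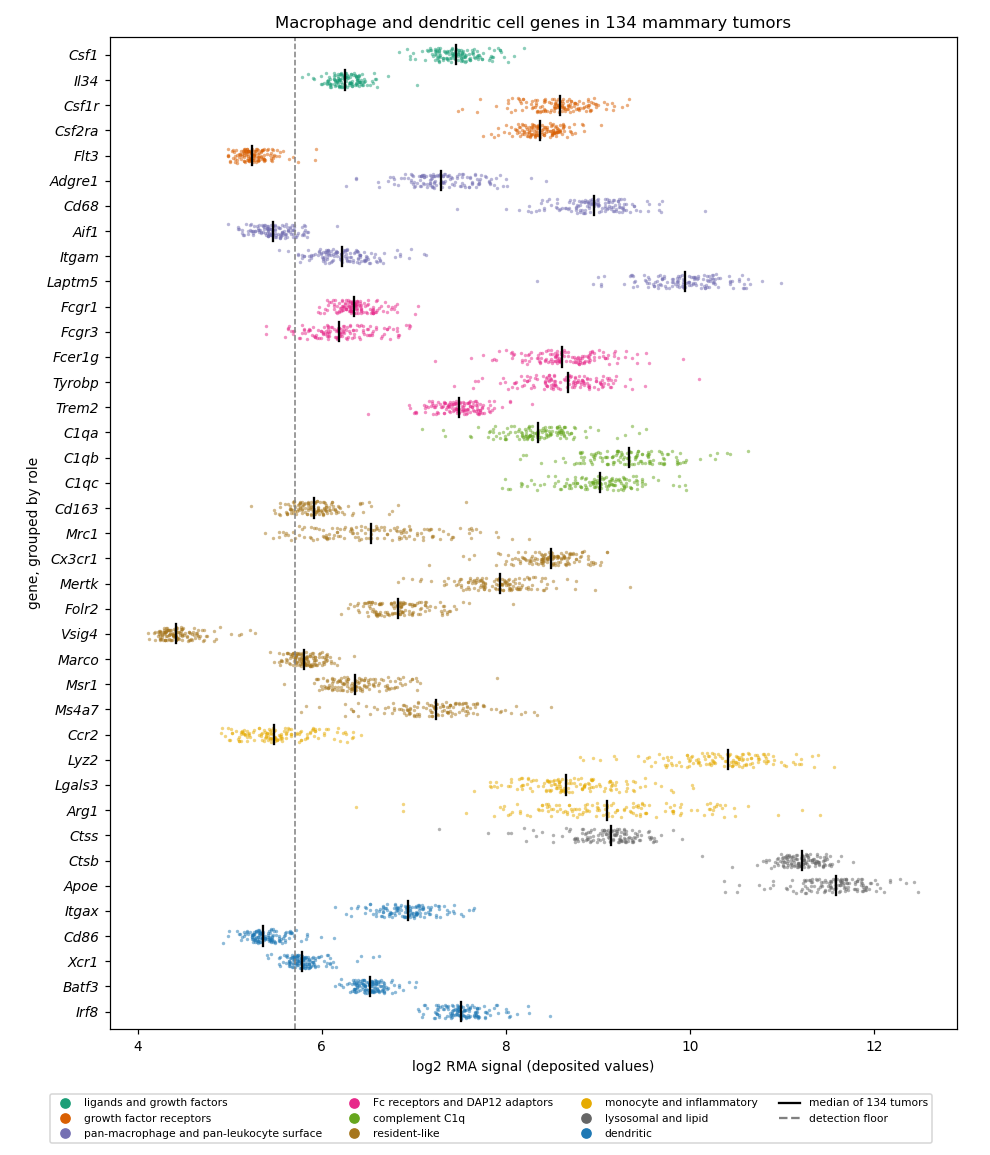
Log2 RMA signal of the 39 genes (rows, grouped and coloured by role) in 134 tumors (points), with the median of each gene as a black bar and the detection floor of 5.72 as a dashed line. Vsig4 lies under the floor in all tumors, whereas Arg1 and Mrc1 spread the most along the axis, with SDs of 0.83 and 0.62.

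Both ligands of the CSF1 receptor were detected in all 134 tumors. Csf1 ranged from 6.84 (tumor 77) through a median of 7.46 to 8.20 (tumor 70). Il34 ranged from 5.78 (tumor 30) through 6.25 to 7.03 (tumor 94). The 90th percentile exceeded the 10th by 1.54-fold for Csf1 and 1.30-fold for Il34. The SD of Csf1 exceeded that of 72.2% of all genes and the SD of Il34 that of 42.9%. Their correlation with each other was r = 0.17 and rho = 0.14 (2-sided permutation p = 0.0545 and 0.112, n = 134), so that a shared course of the 2 ligands was not shown.

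Among the receptors, Csf1r ranged from 7.48 (tumor 25) through a median of 8.58 to 9.34 (tumor 84). Csf2ra, the alpha chain of the receptor for GM-CSF, ranged from 7.75 through 8.37 to 9.03. Both were above the floor in all tumors, whereas Flt3 was above it in 3 of 134, with a lowest value of 4.98, a median of 5.25 and a highest of 5.94. The general macrophage genes Adgre1, which encodes F4/80, and Cd68, a lysosomal membrane protein, were detected in all tumors. Adgre1 ranged from 6.27 (tumor 25) through 7.29 to 8.44 (tumor 13) and Cd68 from 7.47 (tumor 73) through 8.96 to 10.16 (tumor 13).

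The complement genes C1qa, C1qb and C1qc encode the 3 chains of C1q, the recognition protein of the classical complement pathway, which macrophages produce. C1qa ranged from 7.09 through a median of 8.35 to 9.53, with tumor 116 highest. C1qb ranged from 8.15 through 9.33 to 10.63, again with tumor 116 highest. C1qc ranged from 7.96 through 9.02 to 9.95, with tumor 84 highest. The genes lie on chromosome 4, and C1qa with C1qc had the highest r of the 741 pairs of the 39 genes. This pair had r = 0.87 and rho = 0.82 (2-sided permutation p = 1e-05 each, the smallest that 100000 permutations can give), with r = 0.86 after leaving out the 2 tumors farthest from the C1qa median, and it was 0.85 within tumors 107 to 134 and 0.87 within tumors 1 to 106.

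Promoters of 4 of these co-varying genes are shown because their levels moved together and their start regions share short motifs. The sequences are the RefSeq windows of 300 bases around the transcription start in build GRCm38.p6, 5′ to 3′ on the strand of the gene. Capitals mark GAGGAA and GGAAGT on either strand, 2 words that contain the GGAA core of ETS factors such as PU.1, the product of Spi1 and a regulator of macrophage genes. The 2 words can overlap, so that 1 stretch of capitals may hold both.
C1qb, chr4:136886151-136886450, minus strand: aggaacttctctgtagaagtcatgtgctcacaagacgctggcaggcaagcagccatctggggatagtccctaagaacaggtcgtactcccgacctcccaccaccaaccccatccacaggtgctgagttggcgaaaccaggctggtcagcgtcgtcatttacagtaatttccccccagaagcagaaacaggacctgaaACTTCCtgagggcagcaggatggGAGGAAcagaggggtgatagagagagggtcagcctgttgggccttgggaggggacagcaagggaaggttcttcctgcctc
C1qc, chr4:136892865-136893164, minus strand: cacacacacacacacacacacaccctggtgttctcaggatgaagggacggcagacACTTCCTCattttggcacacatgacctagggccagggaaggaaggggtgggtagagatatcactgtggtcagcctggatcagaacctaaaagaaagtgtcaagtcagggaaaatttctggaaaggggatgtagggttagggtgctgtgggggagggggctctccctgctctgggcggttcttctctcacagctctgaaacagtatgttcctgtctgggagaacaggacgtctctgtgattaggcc
Laptm5, chr4:130913066-130913365, plus strand: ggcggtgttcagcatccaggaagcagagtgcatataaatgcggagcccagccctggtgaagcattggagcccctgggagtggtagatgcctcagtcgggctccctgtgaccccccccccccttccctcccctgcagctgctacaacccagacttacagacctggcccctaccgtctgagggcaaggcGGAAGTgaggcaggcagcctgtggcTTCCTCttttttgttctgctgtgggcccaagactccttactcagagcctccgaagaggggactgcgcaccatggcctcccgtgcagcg
Ctss, chr3:95526536-95526835, plus strand: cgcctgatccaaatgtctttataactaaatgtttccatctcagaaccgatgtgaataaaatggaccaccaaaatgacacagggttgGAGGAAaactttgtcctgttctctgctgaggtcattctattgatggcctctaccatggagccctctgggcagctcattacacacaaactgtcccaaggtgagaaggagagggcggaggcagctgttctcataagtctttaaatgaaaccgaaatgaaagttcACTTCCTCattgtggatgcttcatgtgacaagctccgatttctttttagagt

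GAGGAA was found in 17 of the 30 genes with a promoter in the table (56.7%), against 28.3% of all 32851 promoters of the same length. GGAAGT was found in 15 of 30 (50.0%), against 23.8%. These words were chosen after the sequences had been seen, a match describes letters and not a binding site, and no test was made. C1qc and Ctss hold both words in 1 stretch of 8 bases, and C1qb and Laptm5 hold them apart.

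Of the 5 Fc receptors and adaptors, 4 were above the floor in every tumor. Fcer1g, the common gamma chain of activating Fc receptors, ranged from 7.23 (tumor 56) through a median of 8.61 to 9.92 (tumor 116). Tyrobp, which encodes the adaptor DAP12, ranged from 7.44 (tumor 73) through 8.67 to 10.10 (tumor 84). Trem2, a lipid-sensing receptor that signals through DAP12, ranged from 6.51 (tumor 73) through 7.49 to 8.29 (tumor 13). These lowest values of Tyrobp and Trem2 both came from tumor 73. Fcgr1 and Fcgr3, receptors for IgG whose family members resemble each other in sequence, had medians of 6.35 and 6.19 and were above the floor in 134 and 124 tumors.

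Among the genes of resident-like macrophages, Mrc1, the mannose receptor CD206, had the widest range, from 5.39 (tumor 55) through a median of 6.54 to 8.25 (tumor 107), and its 90th percentile exceeded the 10th by 3.07-fold. Folr2, a folate receptor, ranged from 6.21 through 6.83 to 8.08, and Cd163, the haemoglobin scavenger receptor, from 5.23 through 5.92 to 7.57. Tumor 107 was the highest for all 3 of these genes. Cx3cr1, the fractalkine receptor, ranged from 7.17 (tumor 73) through 8.49 to 9.09 (tumor 70), and Ms4a7, a tetraspan membrane protein of macrophages, from 5.77 (tumor 73) through 7.24 to 8.49 (tumor 84). Here tumor 73 was the lowest. Msr1, Marco and Vsig4, which encode scavenger and complement receptors, were above the floor in 133, 102 and 0 tumors, and Mertk, a receptor kinase for the uptake of dying cells, in all 134.

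Of the monocyte and inflammatory genes, Lyz2, lysozyme M, ranged from 8.80 (tumor 48) through a median of 10.41 to 11.56 (tumor 13), and part of its signal may stem from the near-identical Lyz1. Ccr2 ranged from 4.90 through 5.48 to 6.43 and exceeded the floor in 39 of 134 tumors. Arg1, arginase, ranged from 6.38 (tumor 73) through 9.10 to 11.41 (tumor 12), and 99.2% of all genes varied less. Lgals3, galectin-3, ranged from 7.66 through 8.65 to 10.03. The lysosomal proteases Ctss and Ctsb and the lipid carrier Apoe were above the floor in every tumor. Ctss ranged from 7.27 (tumor 73) through 9.14 to 9.91 (tumor 133). Ctsb differed in that tumor 73 had its highest value, 11.76, against a median of 11.21.

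Of the 5 dendritic cell genes, 3 were above the floor in every tumor. Itgax, which encodes CD11c, ranged from 6.14 (tumor 73) through a median of 6.94 to 7.65 (tumor 104). Irf8, a transcription factor of the dendritic and monocyte lineages, ranged from 7.05 (tumor 25) through 7.51 to 8.48 (tumor 82). Cd86, a costimulatory ligand, was above the floor in 7 of 134 tumors, and Xcr1, a chemokine receptor of cross-presenting dendritic cells, in 94. Batf3, a transcription factor of the same cells, was above the floor in all 134, although its SD of 0.16 exceeded that of only 34.9% of genes.

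Levels of the 39 genes were positively correlated across tumors for most pairs. The mean Pearson r over 741 pairs was 0.27, against 0.01 over all pairs of the 19938 genes, and it was 0.25 within tumors 107 to 134 and 0.27 within tumors 1 to 106. A positive r was found for 625 pairs, and 165 pairs exceeded 0.5. After the level of Ptprc, which encodes the pan-leukocyte protein CD45, had been removed from each gene, the mean was 0.20. These values describe 1 set of arrays, and all genes of an array share its RNA and its normalization. C1qa, C1qb and C1qc had r = -0.50, -0.38 and -0.37 with the mean of the olfactory receptor genes. Their r with the deviation that measures array quality was -0.35, -0.31 and -0.33. The same 2 values were -0.42 and -0.39 for Fcer1g, -0.20 and -0.32 for Tyrobp and -0.14 and -0.27 for Csf1r, and the mean r over 741 pairs was 0.27 with array quality as a covariate. The part of the background signal in the correlations was not tested.

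By role, given as a description without a test, the correlations ranged widely. The mean r was 0.83 over the 3 C1q pairs, 0.55 over the 10 pairs of Fc receptors and adaptors and 0.46 over the 10 pairs of general surface genes. It was 0.28 over 10 pairs of dendritic genes, 0.22 over 36 pairs of resident-like genes and 0.05 over 6 pairs of monocyte and inflammatory genes. The C1q genes followed the Fc receptors and adaptors (mean r of 15 pairs 0.64) and the lysosomal and lipid genes (9 pairs, 0.59) more closely than the resident-like genes followed each other. C1qb with Fcer1g had r = 0.77, C1qc with Tyrobp 0.78 and C1qa with Apoe 0.76. The resident-like genes were divided among themselves: Folr2, Mrc1 and Cd163, chosen after their values had been seen, had a mean r of 0.72 over 3 pairs, whereas Cx3cr1 had r = 0.01 with Mrc1 and -0.03 with Cd163.

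Correlated with the mean of the other 38 genes, 26 of the 39 had r above 0.5 and 11 had r under 0.3. The highest were Adgre1 at 0.85, C1qc at 0.83, Csf1r at 0.82 and Tyrobp at 0.80. The 11 were Csf1, Csf2ra, Il34, Cd163, Lgals3, Arg1, Mertk, Marco, Flt3, Xcr1 and Batf3. The genes nearest to these lay outside the 39. Arg1 was nearest to Pigr, the polymeric immunoglobulin receptor of secretory epithelium (r = 0.66), Lgals3 to Pafah1b3 (0.65), Mertk to Jarid2 (0.62), Marco to Nyx (0.62) and Csf2ra to Setd1b (0.54). None of the 50 genes nearest to Arg1, Lgals3, Mertk, Marco, Csf2ra, Il34, Flt3, Xcr1 or Batf3 was among the 39, compared with 16 of the 50 nearest to C1qc, Fcgr1, Itgax and Ms4a7.

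**Figure D2:**
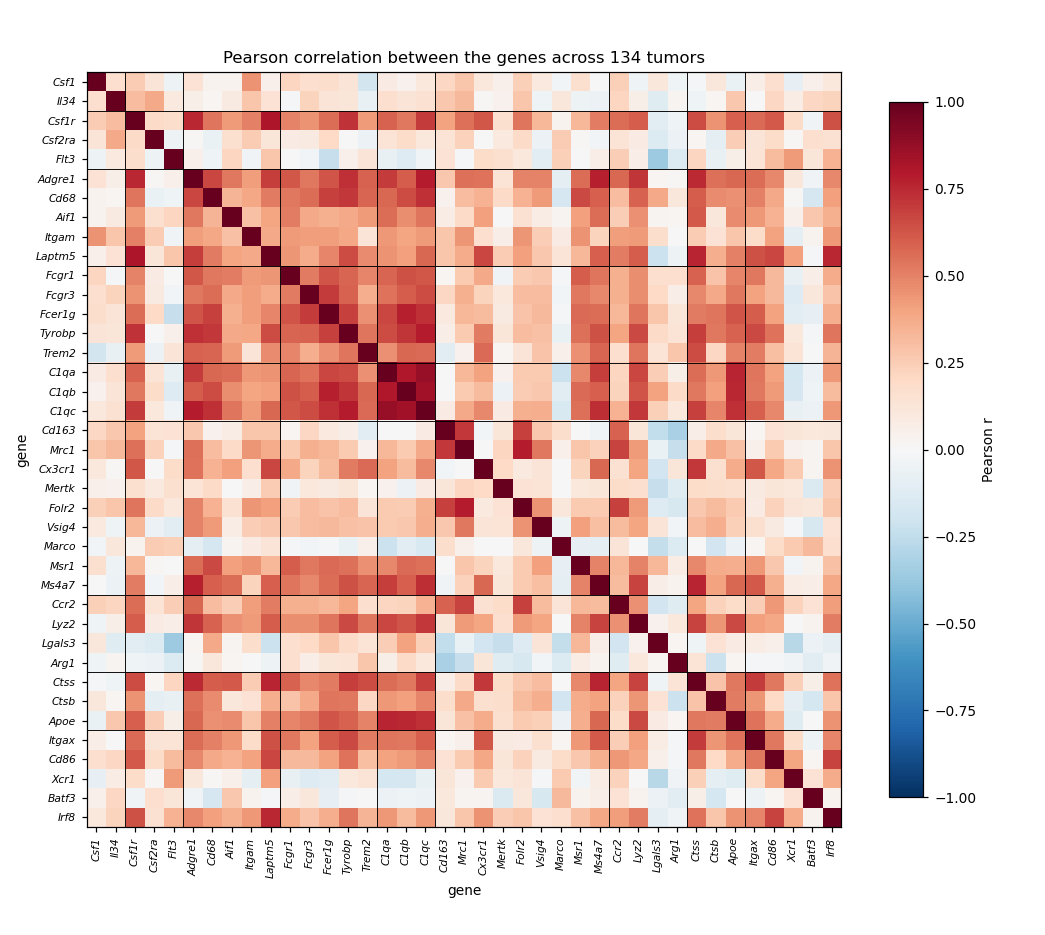
Pearson r between each pair of the 39 genes across 134 tumors, with genes grouped by role in the same order on both axes and lines between roles. Red fields join the general surface, Fc receptor, C1q and lysosomal genes and, apart from these, Cd163, Mrc1, Folr2 and Ccr2 with each other, whereas the rows of Flt3, Mertk, Marco, Lgals3, Arg1, Xcr1 and Batf3 stay pale or blue.

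The first comparison asked which genes followed the CSF1 receptor. With the Csf1r level as a continuous covariate in limma, 30 of the other 38 genes had an adjusted p under 0.05, all positive, where 8.26% of all 19937 genes passed in either direction, 6.03% in the positive and 2.23% in the negative one. Laptm5, a lysosomal membrane protein of blood cells, was the closest. It ranged from 8.34 (tumor 25) through a median of 9.94 to 10.98 (tumor 82) and had r = 0.81 and rho = 0.79 with Csf1r (2-sided permutation p = 1e-05 each), with r = 0.79 after leaving out the 2 tumors farthest from the Csf1r median, and it was 0.71 within tumors 107 to 134 and 0.84 within tumors 1 to 106. Tumor 25 was the lowest for both genes.

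The genes that passed with Csf1r covered nearly all roles: 5 of 5 general surface genes, 5 of 5 Fc receptors and adaptors, 3 of 3 C1q genes, 3 of 3 lysosomal and lipid genes, 7 of 9 resident-like genes, 2 of 4 monocyte and inflammatory genes and 3 of 5 dendritic genes. Per log2 unit of Csf1r, Adgre1 was higher by 0.82 ± 0.06 (SE, limma adjusted p = 8.85e-23), Tyrobp by 0.86 ± 0.07 (7.54e-20) and C1qc by 0.83 ± 0.07 (5.95e-18). Mrc1 was higher by 1.01 ± 0.13 (9.63e-10) and Lyz2 by 0.95 ± 0.11 (1.84e-12). Not passing were Flt3 (r = 0.17), Csf2ra (0.19), Mertk (0.16), Marco (0.04), Xcr1 (0.19), Batf3 (-0.04), Arg1 (-0.04) and Lgals3 (-0.10). Within tumors 107 to 134 alone, 13 of the 38 passed, where 2.88% of all genes did, and the r of Trem2 was -0.08 there, against 0.43 in all tumors.

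Outside the 39 genes, those closest to Csf1r were Pld4, a phospholipase D family member of myeloid cells (r = 0.79), Cyth4 (0.77), Il10ra, the receptor for interleukin 10 (0.77), Nckap1l (0.76), Unc93b1, which conveys nucleic acid sensors to endosomes (0.76), Cybb, the NADPH oxidase subunit gp91phox (0.75), H2-Aa (0.72), Cd74 (0.71), Man2b1 (0.71) and Tmem86a (0.71). H2-Aa and Cd74 encode an MHC class II chain and the invariant chain of antigen presentation. Of 19 tested genes of the CSF1R pathway and of myeloid regulation, 9 passed, all positive, among them the lipid phosphatase Inpp5d (0.68), the transcription factors Irf5 (0.61) and Spi1 (0.58) and the kinase Syk (0.47). Of 22 further macrophage genes, 12 passed, and of 10 further dendritic cell genes 5 did.

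Genes of other cells moved with Csf1r too. All 5 fibroblast genes passed (median r = 0.51, with Dcn at 0.59), and the mean level of the list ranged from 7.32 (tumor 25) through a median of 8.71 to 10.13 (tumor 73). The mean of none of the 5 lay under the floor. Of the others, 3 of 4 endothelial, 3 of 4 adipocyte, 3 of 8 T and NK cell, 2 of 4 mast cell and 1 of 6 neutrophil genes passed, but 0 of 3 B cell and 0 of 5 tumor epithelium genes. Their part in the result was not tested.

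The second comparison asked whether the genes followed the ligand Csf1. With Csf1 as covariate, 2 of the other 38 genes passed in limma, where 4.63% of all 19937 genes passed in either direction, 2.99% in the positive and 1.64% in the negative one. The share of the 38 genes was near that of all genes, so that the count is no result about them. The 2 were Itgam, the integrin CD11b of myeloid cells, and Mrc1. The values of Itgam come from 1 probe set, since 3 others that carried its symbol together with further symbols were left out. Itgam ranged from 5.54 (tumor 56) through a median of 6.22 to 7.14 (tumor 20). It had r = 0.45 and rho = 0.51 with Csf1 (2-sided permutation p = 1e-05 each, limma adjusted p = 0.000152), with r = 0.47 after leaving out the 2 farthest tumors, 0.48 after leaving out arrays 97 to 120, and it was 0.42 within tumors 107 to 134 and 0.44 within tumors 1 to 106. Tumors with high Csf1 tended to have high Itgam in both runs.

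Mrc1 had r = 0.28 and rho = 0.28 with Csf1 (2-sided permutation p = 0.00116 and 0.00122, limma adjusted p = 0.0308), with r = 0.38 in tumors 107 to 134 and 0.21 in tumors 1 to 106. This call was lost with the run as a block (adjusted p = 0.0568), after a second quantile normalization (0.0613) and without arrays 97 to 120 (0.225). Csf1r itself had r = 0.25 and rho = 0.30 with Csf1 (2-sided permutation p = 0.00384 and 0.00051, limma adjusted p = 0.0595), with r = 0.31 in tumors 107 to 134 and 0.23 in tumors 1 to 106. Csf1r passed on ranks (adjusted p = 0.0191), with array quality (0.0159) or Ptprc (0.0182) as a covariate and with dim genes left out (0.0451), and the adjusted p was 0.150 without the 2 farthest tumors (r = 0.21) and 0.150 without arrays 97 to 120 (r = 0.24). Read in the other direction, with Csf1r as the covariate, the same pair had an adjusted p of 0.0429, since the other genes adjusted with it differ.

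**Figure D3:**
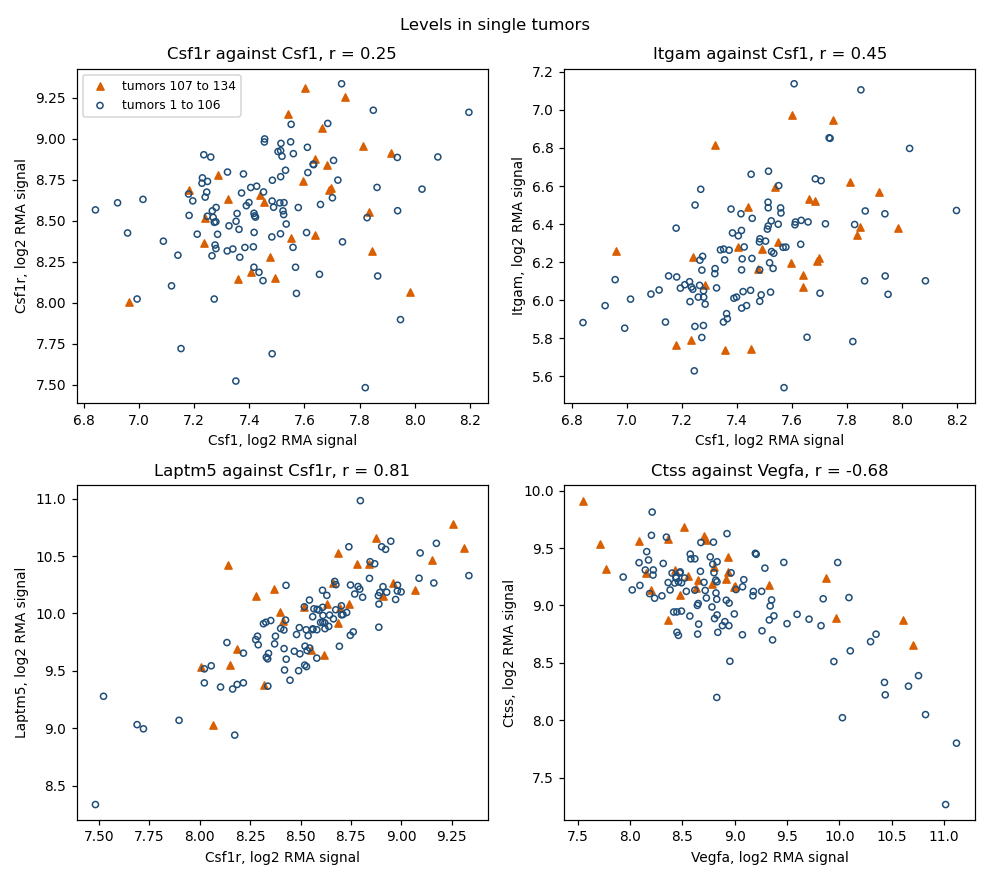
Log2 RMA signals in single tumors for Csf1r against Csf1 (r = 0.25), Itgam against Csf1 (r = 0.45), Laptm5 against Csf1r (r = 0.81) and Ctss against Vegfa (r = -0.68). Triangles are tumors 107 to 134 and circles tumors 1 to 106, and the lowest Csf1r, Itgam, Laptm5 and Ctss values are all among tumors 1 to 106.

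None of the C1q genes (r from 0.05 to 0.10), lysosomal and lipid genes (-0.06 to 0.12) or dendritic genes (-0.08 to 0.17) passed with Csf1. Trem2 had the most negative value, r = -0.19 and rho = -0.22 (2-sided permutation p = 0.0325 and 0.0116), and a limma adjusted p of 0.209. Of the 38 genes, 10 had an unadjusted limma p under 0.05, against 3696 of all 19937 genes. The association with Csf1 differed between the runs for 0 of the 38 genes in limma. Of all genes, 0.0602% passed that test of interaction (0.0100% in the positive and 0.0502% in the negative direction). At an unadjusted p under 0.05 the test counted 0 of the 38 genes, against 1968 of all 19937. That test does not show that the associations were equal, since tumors 107 to 134 were 28 in number.

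The genes outside the 39 that followed Csf1 most closely were Bace1 (r = 0.47), Ecm1, an extracellular matrix protein (0.47), Ccl2 (0.45), Ccl7 (0.45), Gbp7 (0.45), Tgfb1i1 (0.44), Lhfp (0.44), Tnfsf13b, the B cell survival factor BAFF (0.44), Tspan17 (0.43) and Hcar2 (0.43). Ccl2 and Ccl7 encode chemokines that draw monocytes through CCR2, and Ccl2 ranked above Ccr2, whose r with Csf1 was 0.24 (limma adjusted p = 0.0776). The most negative were Nme4 and Gga2 (both -0.44), Gstcd and Mtf2 (both -0.42) and Ppp1r9a (-0.39). Of the 19 genes of the CSF1R pathway and of myeloid regulation, Spi1 (0.35), Irf5 (0.29), the FLT3 ligand Flt3l (0.28) and Csf2rb (0.28) passed, all positive. Of the 22 further macrophage genes 6 passed, namely Ccl2, Ccl7, Stab1, Ccl3, Il1b and Nos2, and of the 10 further dendritic cell genes 0 did. Among genes of other cells, 2 of 4 endothelial and 1 of 5 tumor epithelium genes passed, but 0 of 5 fibroblast, 0 of 8 T and NK cell, 0 of 3 B cell and 0 of 6 neutrophil genes. The mean level of the endothelium list ranged from 6.51 through a median of 7.15 to 9.61 and that of the epithelium list from 9.58 through 11.1 to 11.5, and their part in the result was not tested.

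**Figure D4:**
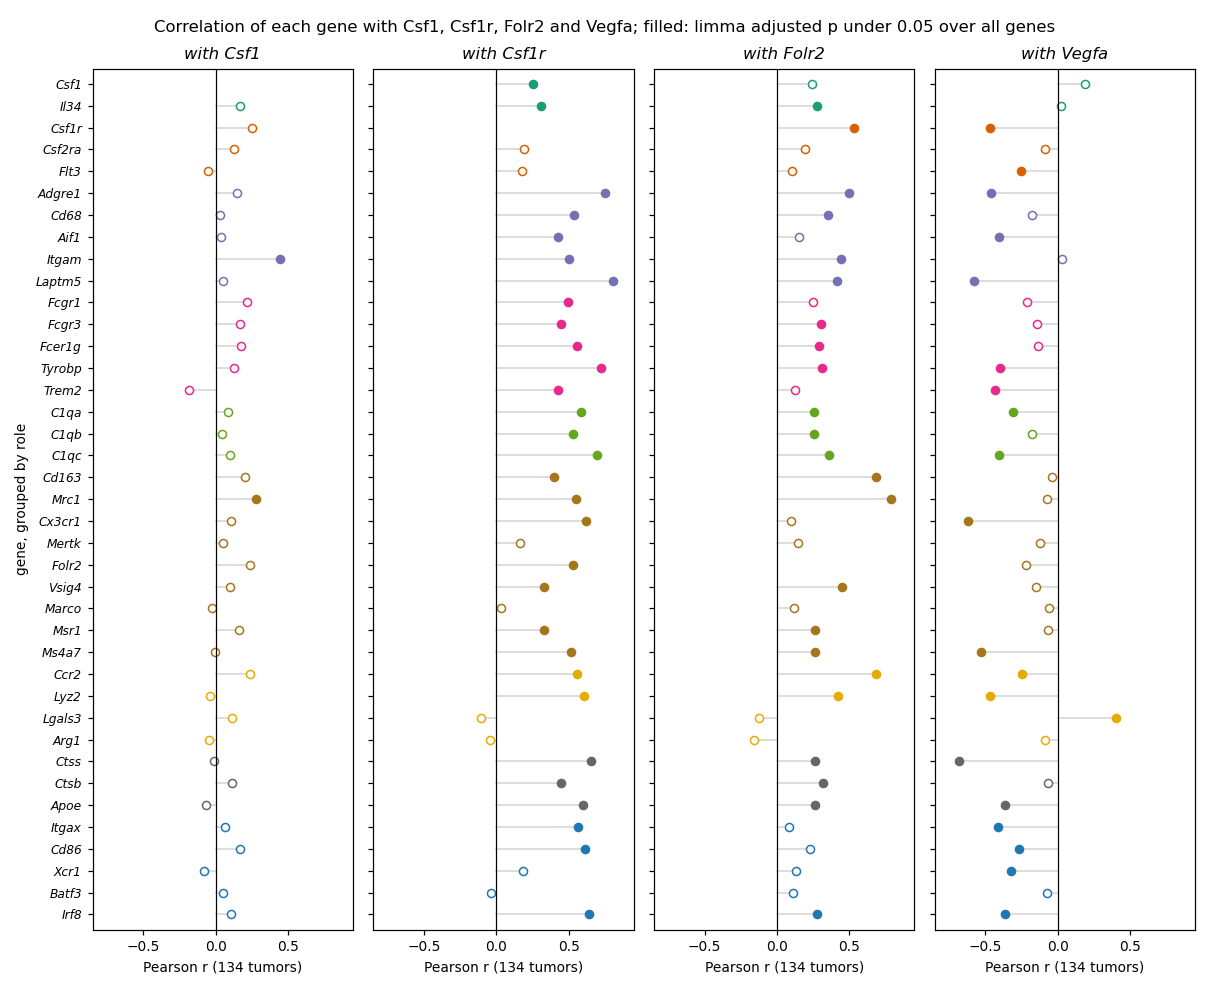
Pearson r (horizontal axis) of each of the 39 genes (rows, grouped and coloured by role) with Csf1, Csf1r, Folr2 and Vegfa across 134 tumors. Filled points had a limma adjusted p under 0.05 over all genes: 2 with Csf1, 30 with Csf1r, 23 with Folr2, and 1 positive and 19 negative with Vegfa.

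With Il34, 10 of the other 38 genes passed, all positive, where 24.0% of all genes passed in either direction, 12.2% in the positive and 11.8% in the negative one. They were Csf2ra, Mrc1, Csf1r, Folr2, Itgam, Cd163, Apoe, Irf8, Fcgr3 and Ccr2. Counted in either direction, the share of the 38 genes was near that of all genes, so the count is not read as a result about them. Csf2ra had r = 0.38 and rho = 0.35 with Il34 (2-sided permutation p = 2e-05 and 5e-05, limma adjusted p = 0.000191), with r = 0.39 after leaving out the 2 farthest tumors, and it was 0.38 within tumors 107 to 134 and 0.38 within tumors 1 to 106. Csf1r had r = 0.31 (limma adjusted p = 0.00267) and Mrc1 0.32 (0.00161). Genes of the stroma passed with Il34 as well: 5 of 5 fibroblast, 4 of 4 endothelial and 4 of 4 adipocyte genes, with mean levels that ranged from 7.32 to 10.13, 6.51 to 9.61 and 5.75 to 11.0, while 1 of 5 epithelial genes passed, the adhesion gene Epcam, which was negative (r = -0.32). Without arrays 97 to 120, 4 of the 38 genes passed, where 23.8% of all genes did. The part of the stromal genes in the result was not tested.

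Folr2 stood for resident-like macrophages. With it, 23 of the other 38 genes passed, all positive, where 5.90% of all genes passed in either direction, 4.16% in the positive and 1.74% in the negative one. Mrc1 was closest, with r = 0.79 and rho = 0.76 (2-sided permutation p = 1e-05 each), with r = 0.76 after leaving out the 2 farthest tumors, and it was 0.87 within tumors 107 to 134 and 0.74 within tumors 1 to 106. Per log2 unit of Folr2, Mrc1 was higher by 1.58 ± 0.11 (SE, limma adjusted p = 1.22e-25), Ccr2 by 0.79 ± 0.07 (6.07e-17) and Cd163 by 0.66 ± 0.06 (9.86e-17). Trem2 (r = 0.13), Cx3cr1 (0.10) and Itgax (0.08) did not pass with Folr2, although each passed with Csf1r. The difference between these associations was not tested.

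The genes outside the 39 nearest to Folr2 were Lyve1, the hyaluronan receptor of perivascular macrophages and lymphatic vessels (r = 0.78), Cd209f (0.78), Ccl6 (0.75), Cd209d (0.73) and Clec10a (0.72). Cd209f, Cd209d and Clec10a encode C-type lectins of macrophages and dendritic cells, and the mean of Cd209f, 5.35, lay under the floor. Nearest to Mrc1 were Ifi205 (0.83), Cd34 (0.83) and Dpt, a dermal matrix protein (0.83). All 10 genes of a list of connective tissue, made after these had been seen, passed with Folr2 (median r = 0.63), as did 4 of 5 fibroblast, 4 of 4 endothelial, 3 of 4 adipocyte, 4 of 4 skeletal muscle and 3 of 4 mast cell genes. The mean level of the skeletal muscle genes ranged from 6.64 through a median of 8.22 to 12.9, that of the mast cell genes from 6.12 through 6.42 to 7.90 and that of the connective tissue list from 6.49 through 7.23 to 8.36. Of the 4 mast cell genes, 3 had means under the floor, and 1 of the 4 adipocyte genes did. Their part in the result was not tested. Without arrays 97 to 120, 12 of the 38 genes passed, where 2.78% of all genes did, and with Ptprc as a covariate 11 passed, where 4.19% of all genes did.

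Ccr2, listed with the monocyte and inflammatory genes, went with the resident-like genes Folr2, Mrc1 and Cd163. With it, 20 of the other 38 genes passed, all positive, where 6.34% of all genes passed in either direction, 4.10% in the positive and 2.24% in the negative one. The highest r were those of Folr2 (0.68), Mrc1 (0.68), Cd163 (0.59) and Adgre1 (0.57). Arg1 and Lgals3 did not pass. Outside the 39, Tm6sf1 (0.69), Cd209a, a lectin of monocyte-derived dendritic cells (0.69), Cfp, properdin (0.65), Cd209d (0.65) and Naaa (0.64) were nearest. All 10 genes of the connective tissue list and 3 of 4 mast cell genes passed with Ccr2 too, and their part in the result was not tested. Since the mean of Ccr2 was 5.54 and 39 of 134 tumors exceeded the floor, part of its differences may be background.

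Flt3 was above the floor in 3 of 134 tumors. With it, 8 genes passed in the positive and 2 in the negative direction, where 39.9% of all genes passed in either direction, 27.5% in the positive and 12.4% in the negative one. Xcr1 had r = 0.42 and rho = 0.36 with Flt3 (2-sided permutation p = 1e-05 and 3e-05), and Lgals3 had r = -0.37 and rho = -0.40 (1e-05 each). Flt3 and Xcr1 also followed the mean of the olfactory receptor genes (r = 0.46 and 0.49) and array quality (0.37 and 0.23). Flt3 passed with 8 of 8 T and NK cell and 3 of 3 B cell genes. Of these lists, 4 and 2 genes had means under the floor, and their mean levels ranged from 5.22 through 5.46 to 6.98 and from 4.77 through 4.95 to 8.13. After a second quantile normalization 5 of the 38 passed, where 3.04% of all genes did, and with array quality as a covariate 12 of the 38 passed, where 17.2% of all genes did. Whether the 38 genes passed more or less often than all genes thus turned with the setting. The part of the background in this result was not tested.

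Among the other dendritic genes, Irf8 followed leukocytes in general, with r = 0.81 to Arhgap30 and 0.79 to Ptprc as its nearest genes outside the 39, and r = 0.75 to Laptm5. Cd86 had r = 0.68 with Irf8. Itgax instead followed Cybb (r = 0.68) and Ctss (0.70). Xcr1 was nearest to Ccr7 (0.62), the homing receptor of mature dendritic and T cells, Icos (0.62) and Ccl22 (0.61, with a mean of 5.555 under the floor). Batf3 had r = 0.04 with Irf8 and 0.15 with Xcr1. It also followed array quality (r = 0.30) and the mean of the olfactory receptor genes (0.21). Over the 10 pairs of the 5 dendritic genes the mean r was 0.28, with 9 pairs positive and a range from -0.05 to 0.68. The 5 genes thus moved together unevenly, with a mean r close to that of all 39 genes (0.27).

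Genes negative with Csf1r were headed by Mgarp (r = -0.48, with a mean of 4.49 under the floor), Vegfa, the vascular growth factor induced by hypoxia (-0.47), P4ha2, a collagen prolyl hydroxylase (-0.45), Kdm3a (-0.44) and Higd1a (-0.44). Because several are known targets of the hypoxia response, a list of 14 such genes and a fit on Vegfa were added after these values had been seen, so that neither supports the other. Of the 14, which include Vegfa and P4ha2, 11 passed with Csf1r, all negative, and their mean level ranged from 7.69 (tumor 96) through a median of 8.12 to 9.78 (tumor 25).

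With Vegfa, 19 of the 39 genes passed in the negative and 1 in the positive direction. Of all genes, 19.9% passed in either direction, 10.9% in the negative and 9.04% in the positive one. Vegfa was chosen after its negative r with Csf1r had been seen, and 30 of the other 38 genes rose with Csf1r. That choice favoured negative values among the 39 genes, so the counts and p-values of this fit are a description and no separate support. Ctss had r = -0.68 and rho = -0.53 (2-sided permutation p = 1e-05 each). Its r was -0.63 after leaving out the 2 tumors farthest from the Vegfa median and -0.66 without tumor 73, which had the lowest Ctss. It was -0.67 within tumors 107 to 134 and -0.70 within tumors 1 to 106. Per log2 unit of Vegfa, Ctss was lower, with a coefficient of -0.37 ± 0.03 (SE, limma adjusted p = 4.29e-17), as were Cx3cr1 at -0.27 ± 0.03 (5.57e-13), Laptm5 at -0.33 ± 0.04 (5.77e-11) and Ms4a7 at -0.35 ± 0.05 (9.06e-09). Lgals3 was the gene that was higher, by 0.26 ± 0.05 (4.06e-05), with r = 0.40 and rho = 0.35 (2-sided permutation p = 2e-05 and 5e-05), and r = 0.63 in tumors 107 to 134 and 0.33 in tumors 1 to 106. Cd163 (r = -0.04), Mrc1 (-0.07) and Itgam (0.03) did not pass. Of the fibroblast genes 4 of 5 were lower with Vegfa as well, and of the 5 tumor epithelium genes 1 was, namely Epcam (r = -0.41), while the median r of these 5 was 0.14. Their part in the result was not tested. Within tumors 107 to 134 alone, the r of 2 of the genes that passed had the opposite sign, Apoe with 0.14 (all tumors -0.36) and C1qa with 0.06 (-0.31). Among genes that did not pass, r in that run also turned for Fcer1g with 0.29 (all tumors -0.13), C1qb with 0.28 (-0.18), Csf2ra with 0.25 (-0.09) and Mertk with 0.23 (-0.12). It turned to smaller values for Ctsb with 0.10 (-0.07), Arg1 with 0.08 (-0.09) and Fcgr3 with 0.04 (-0.14). The same held for Cd68 with 0.01 (-0.18) and Il34 with -0.04 (0.02).

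Between the runs of label numbers, 7 of the 39 genes differed in limma, all higher in tumors 107 to 134. Of all genes, 14.4% differed in either direction, with 7.70% higher and 6.67% lower in tumors 107 to 134. Counted in either direction, the 39 genes differed about as often as all genes, so their count is not read as a result about them. Mrc1 had a lowest value of 5.92, a median of 6.77 and a highest of 8.25 in tumors 107 to 134, against 5.39, 6.44 and 7.89 in tumors 1 to 106, and the difference was 0.46 ± 0.12 (SE, limma adjusted p = 0.00704). Ms4a7 had 6.77, 7.56 and 8.34 in tumors 107 to 134, against 5.77, 7.21 and 8.49 in tumors 1 to 106, with a difference of 0.36 ± 0.10 (0.00756). The runs overlapped widely for both genes. Lyz2, Ctss, Adgre1, Folr2 and Cd163 were higher by 0.31, 0.25, 0.23, 0.19 and 0.17 (adjusted p from 0.0239 to 0.0406). Csf1, Csf1r and the C1q genes did not pass. Of the fibroblast genes, 2 of 5 were higher in tumors 107 to 134 too, and their part in the result was not tested. Without arrays 97 to 120 the genes that passed were Ms4a7, Ctss and Adgre1 of the 39, where 16.9% of all genes passed. With Ptprc as a covariate they were Mrc1 and Ms4a7, where 11.8% of all genes passed.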

How the data were processed

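Total RNA of 134 mammary tumors was extracted with Trizol and hybridised to Affymetrix Mouse Gene 1.0 ST arrays, 1 per tumor. The authors deposited log2 values summarised per probe set with RMA. The RMA version, and whether arrays of other crosses were normalized together with these, are not given in the sources used here. Probes that cover sequence differences of MOLF/EiJ were not removed here, and genotypes, subtypes and metastasis were not used.

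Of 35556 probe sets, 21789 carried 1 gene symbol in the array's probe table, which gave 19938 genes. 1621 probe sets with several symbols and 12146 with none were left out. The 39 genes and all lists were chosen with earlier results of these data known. Genes outside the 39 were named by rule: the 10 most positive and 5 most negative passing genes for Csf1 and Csf1r, 5 and 3 for the other covariates, the gene nearest to each of the 39, and the listed genes of other cell types. Any other name, the Vegfa fit, the hypoxia and connective tissue lists and the promoter motifs followed from values already seen.

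Each gene was fitted on the level of Csf1, Il34, Csf1r, Folr2, Ccr2, Flt3 or Vegfa, or on the run, with limma 3.58.1 in R 4.3.3 and Benjamini-Hochberg adjustment over all genes (threshold 0.05). The fit was tested on simulated data. Correlations of 2 genes were tested with 100000 permutations, 2-sided, and 741 pairs of the 39 genes were computed, of which 402 passed in limma after adjustment over all genes. Array quality was the median absolute deviation from each gene's median over arrays (0.0738 to 0.273, highest in tumor 58). As alternatives, probe sets of a gene were averaged, levels were ranked, and fits were made after a second quantile normalization, with dim genes left out, with run, array quality or Ptprc as a covariate, in each run alone, and without tumor 73, arrays 97 to 120 or the 2 farthest tumors. Promoters of 30 of the 39 genes were matched by symbol in RefSeq (GRCm38.p6). Python 3.11.15, numpy 2.4.6, scipy 1.17.1, pandas 2.3.3 and matplotlib 3.10.9 were used.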

Additional observations from a re-analysis of the deposited data

How the results depend on the processing

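Of 111 alternative values of the counts and of coherence, 87 stayed within 1.5 times the count or within the spread, and 24 moved. The Csf1 count of 2 was 4 on ranks, 1 after quantile normalization again and 1 with the run as a block. It was 0 in tumors 107 to 134 alone, 1 in tumors 1 to 106 alone and 4 with array quality as a covariate. It was 5 with Ptprc and 1 without arrays 97 to 120. In the same order, 5.92%, 5.68%, 6.58%, 0.487%, 1.89%, 5.45%, 5.14% and 2.24% of all genes passed. In tumors 107 to 134 alone, the counts were 0 for Il34, 13 for Csf1r, 7 for Folr2, 5 for Ccr2, 1 for Flt3 and 7 for Vegfa. There, 0.00502%, 2.88%, 2.71%, 1.78%, 0.351% and 12.5% of all genes passed, in the same order. Fewer samples entered these fits. In tumors 1 to 106 alone, the Folr2 count was 12, where 2.02% of all genes passed. With Ptprc as a covariate, the counts were 11 for Folr2, 13 for Ccr2 and 5 for Flt3 (1 positive and 4 negative). The count for the difference between runs was 2 with that covariate. Of all genes, 4.19%, 4.67%, 46.2% and 11.8% passed in the same order. Coherence with that covariate was 0.20. Without arrays 97 to 120, the counts were 4 for Il34, 12 for Folr2 and 3 for the difference between runs, where 23.8%, 2.78% and 16.9% of all genes passed. The Flt3 count was 5 after quantile normalization again, where 3.04% of all genes passed. Of 1432 alternative values of single genes, 1207 kept their direction and side of the threshold, 218 kept the direction and lost the call, 4 gained it and 3 reversed, all in tumors 107 to 134 alone: Trem2 with Csf1r (r = -0.0812), Apoe with Vegfa (0.144) and C1qa with Vegfa (0.0560). The cause was not tested in the other cases. Csf1r with Csf1, which missed the threshold, passed it under 4 of 12 alternatives. Averaging the probe sets of a gene was 1 of the alternatives in all these tallies. Each macrophage and dendritic cell gene analysed had 1 probe set with 1 symbol, so averaging could not change its level. It could only alter the adjustment over all genes. The 123 single-gene values of this setting, all among the 1207, and its counts are therefore no sign of stability. No paired analysis was possible because the labels give 1 group. The planned fit on Spp1 was not run, since the gene had no probe set with 1 symbol. Signals near the floor, as for Flt3, Ccr2, Cd86, Aif1 and Vsig4, limit what these genes can show.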

Other observations

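Single tumors carried many of the extreme values. Tumor 13 had the highest value of 6 of the 39 genes, among them Adgre1 (8.44), Cd68 (10.16), Lyz2 (11.56), Trem2 (8.29) and Msr1 (7.90). Tumor 84 had the highest value of 5, among them Csf1r (9.34), Tyrobp (10.10) and Apoe (12.48). Tumor 25 had the lowest value of 5, among them Csf1r (7.48), Laptm5 (8.34), Apoe (10.37) and Irf8 (7.05), together with the lowest mean of the fibroblast (7.32) and endothelium (6.51) lists and the highest mean of the hypoxia list (9.78). Tumor 82 had the highest value of Laptm5 (10.98), Irf8 (8.48), Cd86 (6.14) and Ptprc (9.83), and the highest means of the T and NK cell (6.98) and B cell (8.13) lists.

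Arg1 and Cd163 ran in opposite directions, with r = -0.32 and rho = -0.23 (2-sided permutation p = 0.00016 and 0.00881, limma adjusted p = 0.00205). The r was -0.29 without tumor 73, which had the lowest Arg1, -0.30 after leaving out the 2 tumors farthest from the Cd163 median, and it was -0.39 within tumors 107 to 134 and -0.31 within tumors 1 to 106. The pair was chosen after its value had been seen among 741 pairs, and r with Epcam was 0.36 for Arg1 and -0.26 for Cd163.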
